A study of Rattus norvegicus with 12 samples.

Results

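Collagens and the genes that fold, crosslink and decorate them were followed through the fracture hematoma of the rat femur 3 days after osteotomy. The set held 38 genes, chosen by name from the collagen and fibroblast matrix repertoire and sorted by role into 6 families, and 37 of them were measured. Each gene was read from those probe sets of the array that the platform annotation assigned to it alone, and where several existed the probe set with the highest mean signal over the 12 arrays was used. Thbs1 had no such probe set and was not analysed here. The 37 genes stand among 14213 genes with a symbol of their own in the series.

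Female Sprague-Dawley rats of 52 weeks (old) or 12 weeks (young) had an osteotomy gap of 1.5 mm in the left femur, held by an external fixator whose distance from the bone made it semi-rigid (15 mm) or rigid (7.5 mm). Crossing age with fixation gave the 4 groups old semi-rigid (OSR), old rigid (OR), young semi-rigid (YSR) and young rigid (YR). Total RNA of the hematoma at day 3 was hybridised to 3 Affymetrix rat arrays per group, each array carrying the pooled RNA of 3 different animals, so that 9 animals stood behind a group and the spread between arrays is a spread between pools. There was no group without an osteotomy, and RNA of the whole hematoma was measured, so that fewer cells of a type and less RNA per cell cannot be told apart.

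In a healing bone gap the fibrin clot is replaced by granulation tissue, in which fibroblasts and mesenchymal progenitors lay down fibrillar collagens, chiefly types I, III and V. Collagen chains are hydroxylated and folded inside the cell by prolyl and lysyl hydroxylases and a collagen chaperone, and crosslinked outside it by lysyl oxidases. Ingrowing vessels are wrapped in basement membranes, sheets built on a network of type IV collagen, and small leucine-rich proteoglycans such as decorin bind collagen fibrils and regulate their diameter.

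The start regions of 2 gene loci are shown, Col4a1 because its start region is shared with a second member, Col4a2, and Col1a2 as that of a main fibrillar collagen. RefSeq windows of 250 bases before to 50 bases after the gene start (GRCr8 assembly) were at hand for 26 of the 38 genes. Both windows below are on the plus strand, Col4a1 at chr16:84885347-84885646 and Col1a2 at chr4:33518307-33518606. Capitals mark CCAAT, which reads ATTGG where it lies on the opposite strand, then GGGCGG, which there reads CCGCCC, and TATAAA, which there would read TTTATA.
Col4a1: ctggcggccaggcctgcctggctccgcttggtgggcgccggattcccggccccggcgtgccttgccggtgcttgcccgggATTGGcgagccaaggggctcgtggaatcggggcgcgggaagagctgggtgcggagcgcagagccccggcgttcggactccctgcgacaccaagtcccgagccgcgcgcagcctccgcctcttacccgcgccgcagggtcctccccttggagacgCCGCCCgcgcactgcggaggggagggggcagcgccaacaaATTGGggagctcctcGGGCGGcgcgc
Col1a2: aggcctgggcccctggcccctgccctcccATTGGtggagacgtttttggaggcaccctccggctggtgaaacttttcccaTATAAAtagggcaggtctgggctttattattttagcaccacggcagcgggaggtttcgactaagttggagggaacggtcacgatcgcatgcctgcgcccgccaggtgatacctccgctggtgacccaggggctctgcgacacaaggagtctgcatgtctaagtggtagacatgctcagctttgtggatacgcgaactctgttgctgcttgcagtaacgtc
The Col4a1 window also holds the start of Col4a2, which is transcribed from the opposite strand. The starts of these divergent genes lie 77 bases apart, and 176 bases of their windows are the same DNA. Col4a2 starts at position 174 and Col4a1 at position 251 of the sequence printed. The Col1a2 window held TATAAA 170 bases before the gene start. Searched on both strands, CCAAT was found in 8 of the 26 windows (30.8%, against 37.5% of all 33469 windows), GGGCGG in 16 (61.5%, against 33.1%) and TATAAA in 3 (11.5%, against 14.2%). A match is a description of these letters, not of a working site. In the rat gene list Col4a2 and Col4a1, Dcn and Lum, and Col3a1 and Col5a2 are next neighbours, 3 pairs in all.

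Signals were compared as log2 values of the deposited signal, so that a difference of 1 is a doubling. The trimmed mean signal of every array was 500.2 in the deposited values, and no value of the 37 genes lay under the floor of 1. For 36 of the 37 genes the mean log2 signal reached or passed 7.16, the median over the array, and Eln lay below it. Arrays are named by group and replicate number. The log2 ratio of the 3' to the 5' control probe set of Gapdh, a sign of RNA integrity, was 2.95 on OR 1 and 6.69 on YSR 1, against 1.02 to 1.59 on the YR arrays and 0.33 to 0.49 on the other 7 arrays. The measured markers of red cells, platelets, neutrophils and macrophages lay above the floor on every array. So did those of the cartilage, osteoblast and adipocyte lists, and only 558 values of all probe sets and arrays lay under the floor. Lying above it therefore does not tell which tissue was sampled.

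No matrix gene passed the threshold in any comparison. With limma and Benjamini-Hochberg adjustment over 31042 probe sets, 0 of 37 genes had an adjusted p under 0.05 for OSR minus YSR (0.00322% of all probe sets), OR minus YR (0.00322%), OSR minus OR (0.0%), YSR minus YR (0.0%), age (0.00644%), fixation (0.0%) or the interaction (0.0%). The smallest adjusted p of a member was 0.234, for age. An unmoderated test, the form named in the study's methods, also called none after the same adjustment. The study itself called genes between pairs of groups at p under 0.05 together with a limit on fold change. Its genes at p under 0.05 for the interaction include Col18a1. The study ran that interaction test only on genes pre-selected by an analysis of variance over all groups and by fold change. At an unadjusted p under 0.05 the matrix genes were unevenly placed. For OR minus YR 16 of the 37 met it (43.2%, against 8.34% of all probe sets and 10.3% of the brighter ones). Of these 15 were higher and 1 was lower in OR, where 4.8% and 3.54% of all probe sets were. For OSR minus YSR 2 of the 37 met it (5.41%, against 4.36% of all probe sets), 1 higher and 1 lower in OSR, where 2.03% and 2.33% of all probe sets were. The test of the difference between these comparisons, the interaction, called none. By the unmoderated test 11 genes met an unadjusted p under 0.05 for OR minus YR and 2 for OSR minus YSR. Everything that follows is a description of values whose adjusted p missed the threshold.

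The 4 groups did not order the genes evenly. OR held the highest group mean of 20 of the 37 genes (54.1%, against 30.2% of all probe sets), OSR and YSR of 8 each, and YR of 1. YR held the lowest mean of 20 (54.1%, against 26.7%), YSR of 8, OR of 6 and OSR of 3. The median difference over the 37 genes was 0.47 for OR minus YR, with 28 genes positive, where the median of all probe sets was 0.04. It was 0.09 for OSR minus YSR with 24 positive, where the median of all probe sets was 0.0. The median for OSR minus YSR was -0.022 without OSR 1, -0.042 without OSR 2 and 0.29 without OSR 3, whereas that for OR minus YR stayed between 0.334 and 0.602 as each array was left out. The 3 OR arrays lay wholly above the 3 YR arrays for 16 genes and wholly below for 1, together 17 genes, where 13.8% of all probe sets did not overlap (7.75% above and 6.04% below). The OSR arrays lay wholly above the YSR arrays for 2 genes and below for 1, where 8.98% of all probe sets did not overlap (4.08% above and 4.9% below). Averaged over fixation, age gave 17 genes at an unadjusted p under 0.05 (8.59% of all probe sets), 14 higher and 3 lower in old rats, against 4.7% and 3.89% of all probe sets. That count was 8 without OSR 2 and 10 without OR 3, YR 1 or YR 2. The count for OR minus YR was 10 without YR 2.

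Single arrays weighed on these orders. YR 2 had the lowest value of all 12 arrays for 19 of the 37 genes and the lowest in its group for 32. OSR 3 was the lowest OSR array for 31 genes and the highest for none, and OSR 2 was the highest OSR array for 26. The median over the genes of the deviation from each gene's mean was 0.16, 0.25 and -0.31 on the OSR arrays, 0.18, 0.12 and 0.38 on the OR arrays, -0.15, 0.04 and -0.05 on the YSR arrays and -0.23, -0.5 and 0.11 on the YR arrays. Thus all OR arrays were positive, while the OSR, YSR and YR arrays spread over both signs. The median within-group SD of a gene was 0.42 in OSR, 0.3 in OR, 0.2 in YSR and 0.37 in YR. Without OSR 3 the number of genes at an unadjusted p under 0.05 for OSR minus YSR was 8, and without YR 3 it was 4 and without OSR 1 it was 1.

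**Figure D1:**
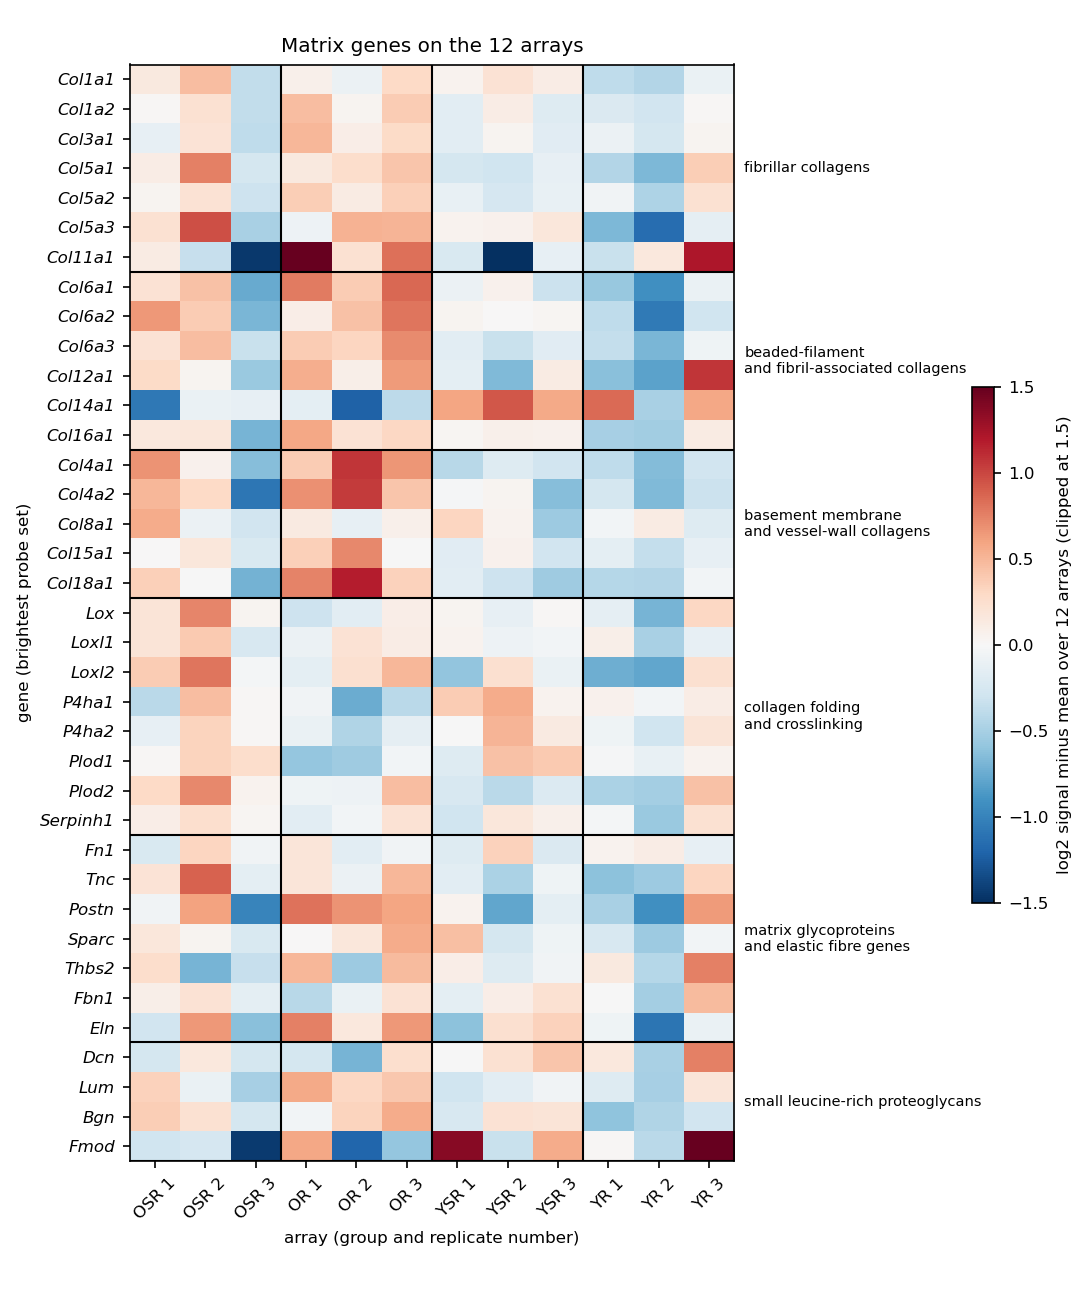
Each row is a matrix gene and each column an array, and the colour gives the log2 signal minus the mean of that gene over the 12 arrays, red above and blue below it, clipped at 1.5. The OR columns are mostly red, the YR 2 column is blue for most genes and OSR 3 is blue for most, with Col14a1 running the other way, bluer in the old groups.

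Fixation alone separated few genes. Semi-rigid minus rigid, averaged over age, gave 5 genes at an unadjusted p under 0.05 (5.73% of all probe sets), 3 higher and 2 lower, against 3.2% and 2.53% of all probe sets, with a median difference of -0.002. The count was 3 without OR 2, OR 3, YSR 2, YSR 3 or YR 1. Within old rats OSR minus OR gave 8 genes, 1 higher and 7 lower in OSR (5.26% of all probe sets, 2.43% higher and 2.83% lower), with a median of -0.25. The OSR arrays lay wholly above the OR arrays for 1 gene and below for 2, where 10.8% of all probe sets did not overlap (5.04% above and 5.74% below). Without OSR 3 the median was 0.018 and the count 3. The count was 4 without OR 1 and 12 without OSR 2. Within young rats YSR minus YR gave 3 genes, all higher in YSR (4.37% of all probe sets, 2.77% higher and 1.6% lower), with a median of 0.11. The YSR arrays lay wholly above the YR arrays for 4 genes and below for none, where 9.38% of all probe sets did not overlap (5.73% above and 3.65% below). The count was 0 without YSR 2 or YR 2 and 1 without YSR 3 or YR 1, and the median was -0.003 without YR 2 and 0.32 without YR 3. OSR minus OR and OR minus YR share the OR arrays, and YSR minus YR and OR minus YR share the YR arrays, so that these differences are not independent of each other.

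The interaction, here the effect of semi-rigid over rigid fixation in old rats minus that in young rats, was negative for 26 of the 37 genes with a median of -0.39, where the median of all probe sets was -0.03. At an unadjusted p under 0.05 stood 5 genes, all negative, where 3.8% of all probe sets met it (1.43% positive and 2.37% negative). They were Col6a1 (-1.11 ± 0.4 SE), Col6a2 (-0.95 ± 0.43), Col16a1 (-0.85 ± 0.33), Col18a1 (-0.84 ± 0.37) and Bgn (-0.67 ± 0.28), each with an adjusted p of 0.99. Second probe sets gave -0.22 ± 0.29 for Col18a1 (mean signal 9.5) and -0.16 ± 0.47 for Col6a2 (mean signal 7.53). The number of genes at this threshold depended on single arrays. It was 11 without OSR 2 or YR 3, 8 without OSR 1, 3 without YSR 2, 2 without OR 2 or YR 1, and 1 without OSR 3 or YR 2. Without YR 2 the median was -0.054.

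The fibrillar collagens build the load-bearing fibrils of the early callus. All 7 were higher in OR than in YR (54.2% of all probe sets were), with a median difference of 0.46 and a range of 0.38 to 0.97. An unadjusted p under 0.05 was met by 3 of them (8.34% of all probe sets). Between OSR and YSR the median was 0.09 and none met it. Col1a1, the main chain of type I collagen, measured 14.59, 14.91 and 14.08 in OSR, 14.52, 14.36 and 14.74 in OR, 14.5, 14.66 and 14.56 in YSR and 14.06, 14.0 and 14.35 in YR. Its 3 OR arrays and its 3 YSR arrays all lay above the 3 YR arrays, whereas OSR 3 lay among them. The difference of OR minus YR was 0.4 ± 0.2 (SE, 95% interval -0.02 to 0.83, adjusted p = 0.613), a 1.32-fold level. A second Col1a1 probe set, nearly as bright (mean 14.14), kept OR above YR, by 0.64 ± 0.23 (SE), but not the rest of the order. On it YSR overlapped YR (0.12 ± 0.23, against 0.44 on the brightest). The OSR arrays there lay wholly below the OR arrays (-0.64 ± 0.23, adjusted p = 0.896, against -0.01).

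Col1a2, which supplies the other chain of type I collagen, measured 14.8, 15.01 and 14.41 in OSR, 15.24, 14.82 and 15.16 in OR, 14.62, 14.89 and 14.59 in YSR and 14.56, 14.49 and 14.8 in YR. All OR arrays were above all YR arrays, by 0.46 ± 0.18 on average (SE, interval 0.07 to 0.85, adjusted p = 0.531). Col3a1, the type III chain of granulation tissue, measured 14.94, 15.27 and 14.69 in OSR, 15.57, 15.17 and 15.36 in OR, 14.91, 15.11 and 14.9 in YSR and 14.98, 14.81 and 15.11 in YR. Its means were 14.97, 14.98 and 14.97 in OSR, YSR and YR, and OR alone was higher, at 15.37 ± 0.2 (SD, n = 3). Its OR minus YR difference was 0.4 ± 0.17 (SE, adjusted p = 0.57). Col3a1 was lower in OSR than in OR by the same size, -0.4 ± 0.17 (SE, adjusted p = 0.901), and after quantile normalization these differences were 0.216 for OR minus YR and -0.154 for OSR minus OR.

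Type V collagen nucleates fibrils and keeps them thin. Col5a1 measured 12.58, 13.22 and 12.2 in OSR, 12.62, 12.73 and 12.89 in OR, 12.2, 12.17 and 12.34 in YSR and 12.03, 11.8 and 12.84 in YR. Old minus young averaged over fixation was 0.48 ± 0.19 (SE, adjusted p = 0.502), and the ages overlapped through OSR 3 and YR 3. Col5a3, a minor type V chain, measured 11.96, 12.69 and 11.24 in OSR, 11.65, 12.25 and 12.24 in OR, 11.78, 11.79 and 11.9 in YSR and 11.05, 10.58 and 11.59 in YR. The YR arrays were below every OR and YSR array, although YR 3 came close to OR 1. The OR minus YR difference was 0.97 ± 0.32 (SE, interval 0.28 to 1.67, adjusted p = 0.418), the widest gap of the family in that comparison, and YSR minus YR was 0.75 ± 0.32 (SE, adjusted p = 0.991). For Col5a2 the group means were 14.03, 14.33, 13.88 and 13.95 in OSR, OR, YSR and YR, highest in OR as for Col1a2 and Col3a1.

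Col11a1, whose product joins type V collagen at the fibril core and is best known from cartilage, followed fixation instead of age. It measured 10.05, 9.58 and 8.47 in OSR, 11.42, 10.15 and 10.75 in OR, 9.69, 8.35 and 9.8 in YSR and 9.59, 10.08 and 11.13 in YR. All OSR arrays lay below all OR arrays, whereas the YSR and YR arrays overlapped. Semi-rigid minus rigid was -1.2 ± 0.36 (SE, unadjusted p = 0.00568, adjusted p = 0.845), and leaving out each array in turn gave -1.368 to -0.966. The cartilage markers, of which 4 of 6 were measured, summed to a signal of 496 to 1091 in OSR, 471 to 766 in OR, 485 to 649 in YSR and 438 to 1405 in YR. YR 3, with a Col11a1 value of 11.13, had the highest sum (1405). OR 1, with the highest Col11a1 value, had a sum of 471, and OSR 2, with a Col11a1 value of 9.58, one of 1091. The part of the cartilage markers in the Col11a1 values was not tested.

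**Figure D2:**
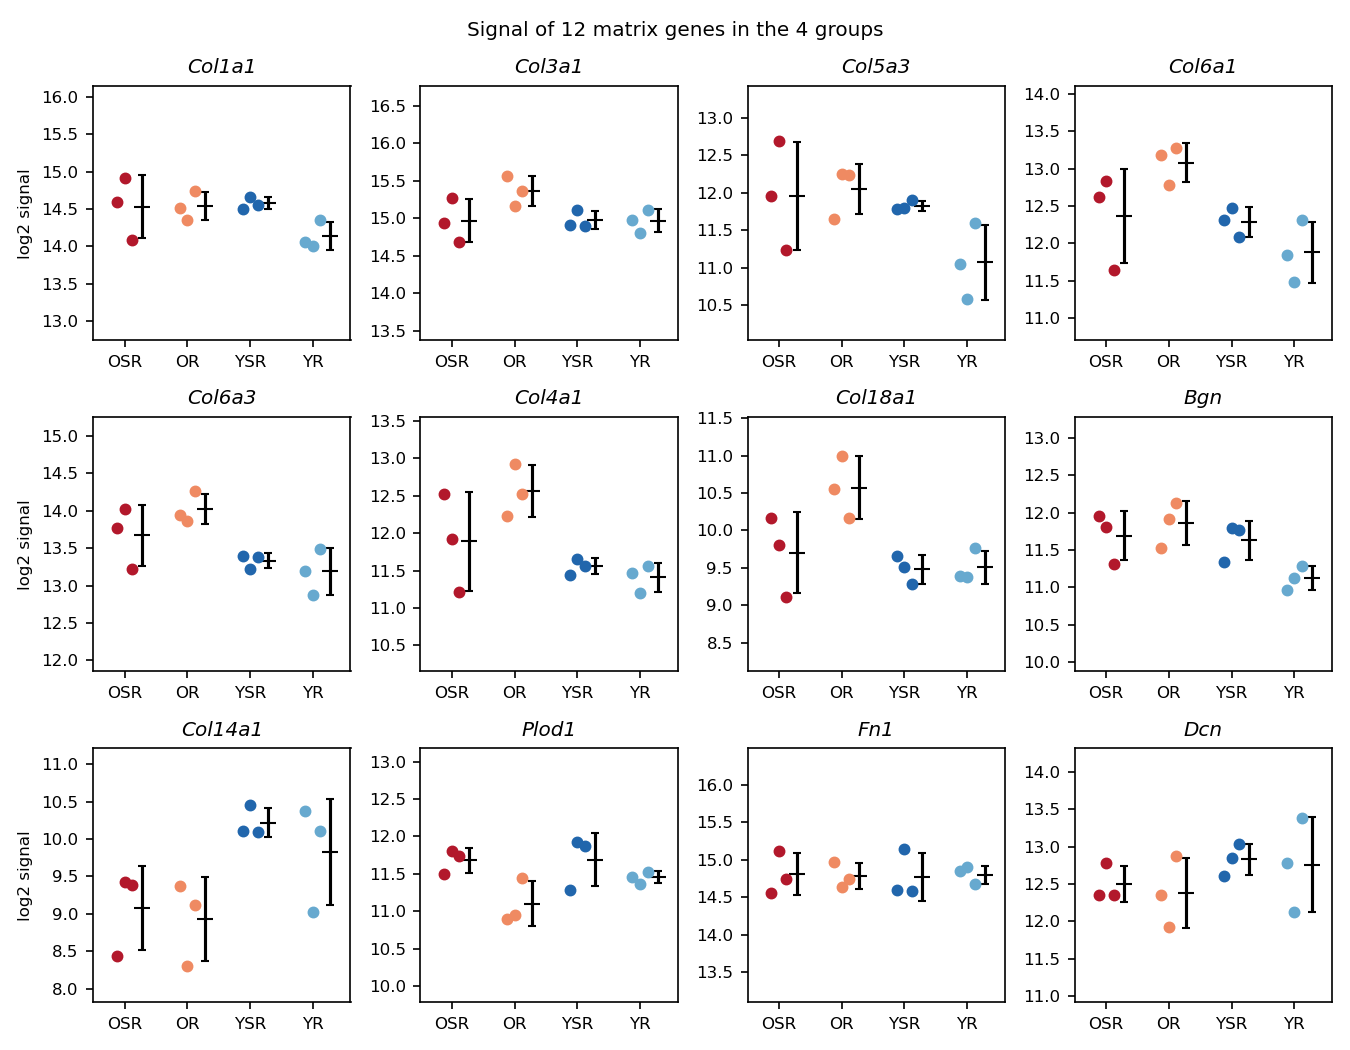
Points give the log2 signal of 12 matrix genes on the 3 arrays of OSR, OR, YSR and YR, with the mean and SD of each group as a bar beside them. OR is the highest group for Col3a1, Col6a1, Col6a3, Col4a1 and Col18a1, YR is the lowest for Col1a1, Col5a3 and Bgn, Col14a1 is lower in both old groups, and Fn1 is level across the 4.

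Among the beaded-filament and fibril-associated collagens the gap between the rigid groups was wider. Of the 6 genes 4 were higher and 1 was lower in OR than in YR at an unadjusted p under 0.05 (4.8% and 3.54% of all probe sets). The median difference was 0.76, against 0.09 for OSR minus YSR. Type VI collagen forms beaded microfilaments around cells from chains encoded by Col6a1, Col6a2 and Col6a3. Col6a1 measured 12.62, 12.84 and 11.65 in OSR, 13.18, 12.78 and 13.27 in OR, 12.32, 12.47 and 12.08 in YSR and 11.84, 11.49 and 12.31 in YR. OR did not overlap YR or YSR, while OSR 2 lay within the OR range and OSR 3 among the YR arrays. OR minus YR was 1.2 ± 0.28 (SE, interval 0.58 to 1.81, unadjusted p = 0.00107, adjusted p = 0.245), a 2.29-fold level and the largest difference of the 37 genes in that comparison. OSR minus YSR was 0.08 ± 0.28 (SE, interval -0.53 to 0.7). The interaction of Col6a1, -1.11, ran from -1.347 to -0.751 as each array was left out.

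Col6a3 measured 13.77, 14.02 and 13.22 in OSR, 13.94, 13.87 and 14.26 in OR, 13.4, 13.22 and 13.38 in YSR and 13.2, 12.87 and 13.49 in YR. All 3 OR arrays exceeded all 6 young arrays, and so did 2 of the 3 OSR arrays. Its age difference, 0.59 ± 0.15 (SE, unadjusted p = 0.00157), had the smallest adjusted p of all members, 0.234. Col6a2 behaved much like Col6a1, with means of 11.59, 11.92, 11.5 and 10.89 in OSR, OR, YSR and YR and an OR minus YR difference of 1.04 ± 0.3 (SE, adjusted p = 0.352). At the brightest probe sets the 3 type VI chains thus shared the order of OR above OSR, YSR and YR. Their OR arrays there lay above their YR arrays in each case. Dimmer second probe sets did not share this order. On them OR minus YR was -0.05 ± 0.33 for Col6a2 (mean signal 7.53) and 0.04 ± 1.68 for Col6a3 (mean signal 7.49, SE). The OR and YR arrays overlapped on both, and the highest group was YSR for Col6a2 and OSR for Col6a3.

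Types XII, XIV and XVI sit on the surface of fibrils. Col12a1 measured 11.97, 11.73 and 11.13 in OSR, 12.23, 11.78 and 12.33 in OR, 11.54, 11.02 and 11.81 in YSR and 11.06, 10.89 and 12.76 in YR. YR 3 was the highest and YR 2 the lowest of the 12 arrays, so that the SD of YR was 1.03 and no age or fixation difference exceeded it. Col16a1 was higher in OR than in YR by 0.67 ± 0.23 (SE, adjusted p = 0.452). Col14a1 was the exception of the family. It measured 8.44, 9.42 and 9.39 in OSR, 9.37, 8.3 and 9.12 in OR, 10.11, 10.45 and 10.09 in YSR and 10.37, 9.03 and 10.1 in YR. The OSR arrays all lay below the YSR arrays, while YR 2 lay among the OR arrays. OSR minus YSR was -1.13 ± 0.37 and OR minus YR was -0.9 ± 0.37 (SE, adjusted p = 0.959 and 0.547), which is 0.456 and 0.534 of the young level, and age averaged over fixation was -1.02 ± 0.26 (SE, unadjusted p = 0.00195, adjusted p = 0.256). The fibroblast and progenitor markers did not share this direction. For age 7 of the 10 measured were positive (53.1% of all probe sets), with a median of 0.19. At an unadjusted p under 0.05 stood 4 higher and 1 lower (4.7% and 3.89% of all probe sets), the lower being Pdgfra (-0.56).

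Basement membrane and vessel-wall collagens showed the widest gap between the rigid groups. The median of OR minus YR over the 5 genes was 1.05, and 4 of the 5 met an unadjusted p under 0.05, all higher in OR (4.8% of all probe sets). For OSR minus YSR the median was 0.12 and none met it. Col4a1, one of the chains of the basement membrane network, measured 12.53, 11.92 and 11.21 in OSR, 12.23, 12.93 and 12.52 in OR, 11.44, 11.66 and 11.56 in YSR and 11.47, 11.2 and 11.56 in YR. The OR arrays were above all young arrays, the 6 young arrays lay within 11.2 to 11.66, and OSR ran from the level of the young to that of OR. OR minus YR was 1.15 ± 0.27 (SE, interval 0.57 to 1.74, unadjusted p = 0.000984, adjusted p = 0.238), a 2.22-fold level, and OSR minus YSR was 0.33 ± 0.27 (SE, interval -0.25 to 0.91), or 0.009 without OSR 1 and 0.668 without OSR 3. The age difference was 0.74 ± 0.19 (SE, adjusted p = 0.257). Without OSR 3 it was 0.91 with an adjusted p of 0.0432, the only call of a matrix gene in any alternative, and 80 probe sets were then called in place of 2.

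Col4a2, its partner across the shared start region printed above, gave means of 10.65, 11.47, 10.54 and 10.34 in OSR, OR, YSR and YR. The order of the groups was that of Col4a1, and OR minus YR was 1.13 ± 0.35 (SE, adjusted p = 0.373). Col18a1, the type XVIII chain of vascular and epithelial basement membranes from which endostatin is cut, measured 10.17, 9.81 and 9.11 in OSR, 10.56, 10.99 and 10.16 in OR, 9.66, 9.51 and 9.28 in YSR and 9.39, 9.38 and 9.77 in YR. OR exceeded both young groups without overlap. The rigid pair differed by 1.05 ± 0.26 (OR minus YR, SE, interval 0.48 to 1.63, adjusted p = 0.295) and OSR minus OR was -0.87 ± 0.26 (SE, unadjusted p = 0.00587, adjusted p = 0.896), or -0.579 without OSR 3, without which the interaction of Col18a1 was -0.546. On the second Col18a1 probe set OR minus YR was 0.49 ± 0.21 and OSR minus OR was -0.29 ± 0.21 (SE). Col15a1, a relative of type XVIII, was 0.56 ± 0.18 higher in OR than in YR (SE, adjusted p = 0.384). Col8a1, a collagen of the vessel wall, had means of 8.37, 8.33, 8.24 and 8.27 in OSR, OR, YSR and YR, and the interval of OR minus YR was -0.5 to 0.63.

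**Figure D3:**
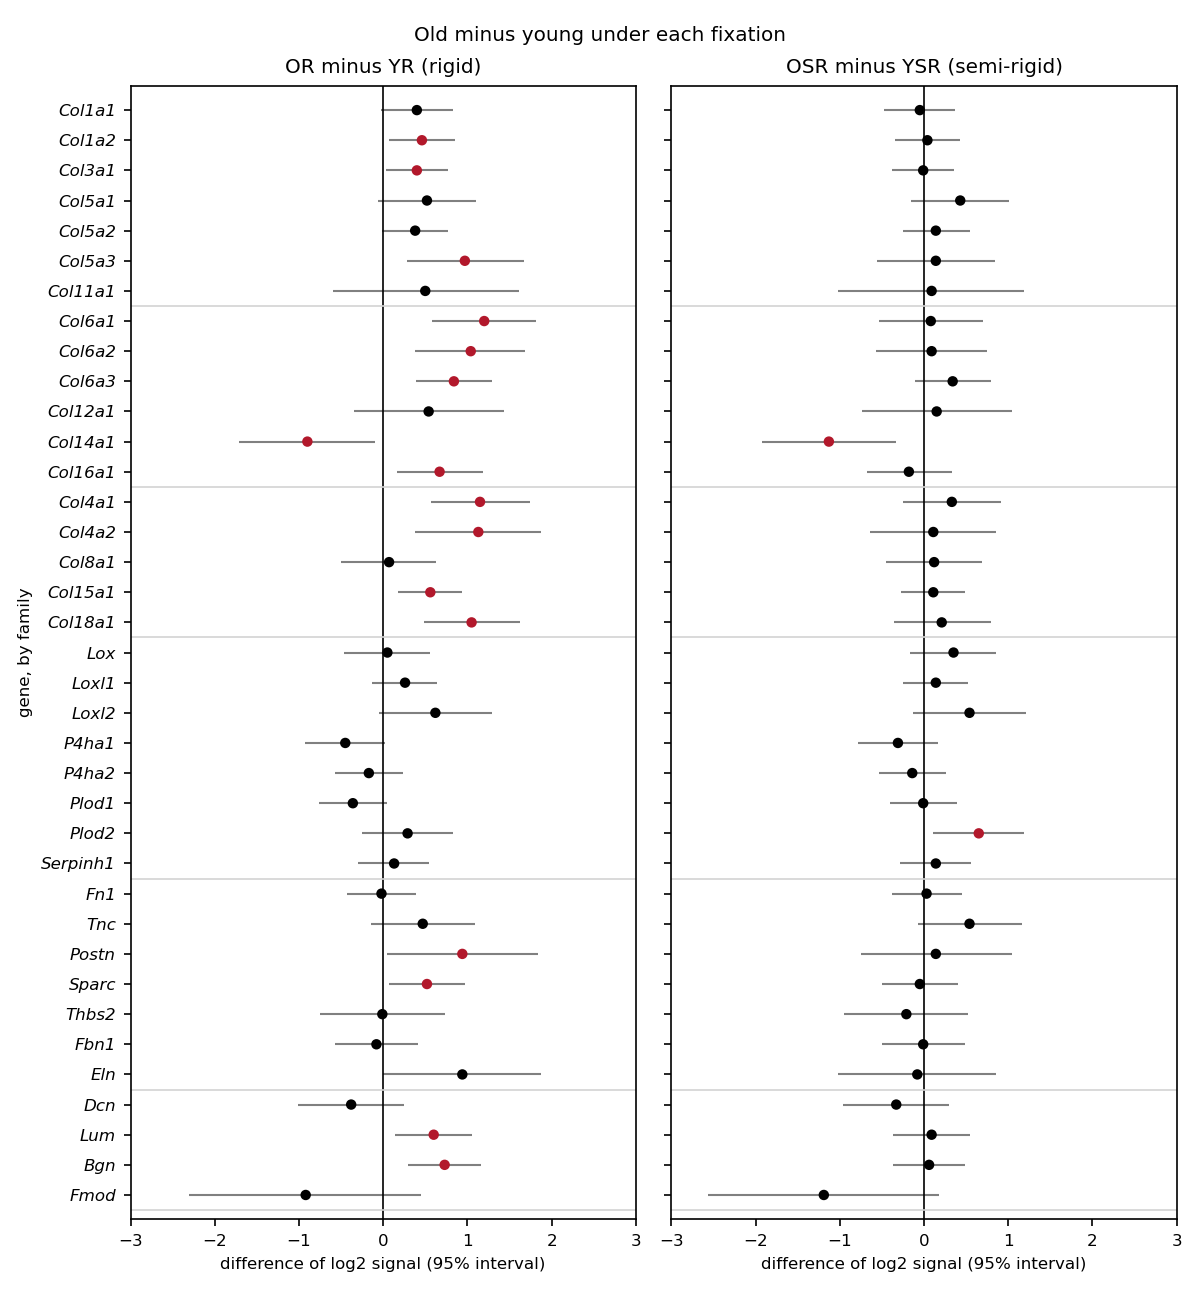
Points give the difference of group means on the log2 scale with its 95% interval for each matrix gene, OR minus YR on the left and OSR minus YSR on the right, and red points have an unadjusted p under 0.05. On the left most collagens lie to the right of 0, with Col6a1, Col4a1, Col4a2, Col18a1 and Col6a2 beyond 1, whereas on the right only Plod2 and Col14a1 have intervals that leave out 0, on opposite sides.

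Collagen folding and crosslinking genes did not share this age gap. None of the 8 met an unadjusted p under 0.05 for OR minus YR (8.34% of all probe sets did), and the median was 0.09. Averaged over age, all 8 were higher under semi-rigid than under rigid fixation (50.5% of all probe sets), with a median of 0.26 and a range of 0.07 to 0.41. Higher in this contrast at an unadjusted p under 0.05 were 3 of them (3.2% of all probe sets). Between YSR and YR alone 7 of the 8 were higher in YSR (52.6% of all probe sets), and Plod2 was lower (-0.11). Plod1, a lysyl hydroxylase of the helical domain of collagen, measured 11.5, 11.81 and 11.74 in OSR, 10.9, 10.95 and 11.44 in OR, 11.29, 11.92 and 11.87 in YSR and 11.46, 11.37 and 11.53 in YR. The OSR arrays lay above the OR arrays, and the YSR arrays overlapped the YR arrays through YSR 1. Semi-rigid minus rigid was 0.41 ± 0.13 (SE, unadjusted p = 0.00805, adjusted p = 0.845), and 0.355 to 0.513 as each array was left out. P4ha1 and P4ha2, catalytic subunits of prolyl 4-hydroxylase, differed by 0.36 ± 0.15 and 0.28 ± 0.13 (SE, adjusted p = 0.845 for both). Old minus young was negative for P4ha1, at -0.38 ± 0.15 (SE, adjusted p = 0.516).

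Plod2 hydroxylates the telopeptides of collagen, which sets the kind of crosslink formed. It measured 12.78, 13.21 and 12.54 in OSR, 12.42, 12.41 and 12.95 in OR, 12.24, 12.08 and 12.28 in YSR and 12.01, 11.98 and 12.92 in YR. Every OSR array exceeded every YSR array, and OSR minus YSR was 0.65 ± 0.25 (SE, interval 0.11 to 1.19, adjusted p = 0.959), a 1.57-fold level. At the brightest probe sets Plod2 was the only member higher in OSR than in YSR at an unadjusted p under 0.05. Lox, the lysyl oxidase that starts crosslinking, measured 13.59, 14.13 and 13.43 in OSR, 13.08, 13.23 and 13.49 in OR, 13.43, 13.27 and 13.41 in YSR and 13.26, 12.7 and 13.7 in YR. OSR 2 was the highest array and YR 2 the lowest, and OSR minus OR was 0.45 ± 0.24 (SE, adjusted p = 0.901), or 0.239 without OSR 2. On a second Lox probe set (mean 11.78) the OSR arrays lay wholly above the YSR arrays. The difference there was 0.95 ± 0.39 (SE, unadjusted p = 0.0323, adjusted p = 0.959), against 0.35 ± 0.24 on the brightest. The YSR values of that second probe set were 10.61, 11.96 and 11.8, lowest on YSR 1, the array with the Gapdh ratio of 6.69. The part of RNA quality in this difference was not tested. Loxl2 had means of 9.93, 9.74, 9.39 and 9.12 in OSR, OR, YSR and YR, with an age difference of 0.58 ± 0.22 (SE, adjusted p = 0.472). Serpinh1, the collagen chaperone, kept means between 13.53 and 13.77 in the 4 groups, and Loxl1 between 10.58 and 10.87.

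The matrix glycoproteins and elastic fibre genes, 7 of 8 measured, were mixed. Over the family OR minus YR had a median of 0.47, with 2 genes higher at an unadjusted p under 0.05 (4.8% of all probe sets), and OSR minus YSR one of -0.01. Fn1, whose product fibronectin forms the provisional matrix of the clot, measured 14.56, 15.12 and 14.74 in OSR, 14.97, 14.64 and 14.74 in OR, 14.6, 15.14 and 14.58 in YSR and 14.85, 14.9 and 14.67 in YR. The 4 means lay between 14.77 and 14.81, the groups overlapped throughout, and the interval of OR minus YR ran from -0.43 to 0.39. Postn, encoding periostin of the periosteum and of early callus, measured 13.5, 14.16 and 12.56 in OSR, 14.37, 14.22 and 14.14 in OR, 13.61, 12.77 and 13.41 in YSR and 13.06, 12.63 and 14.19 in YR. The OR arrays were tightly grouped and high, and only YR 3 of the young arrays reached them. OR minus YR was 0.94 ± 0.41 (SE, interval 0.05 to 1.84, adjusted p = 0.572), or 0.612 without YR 2.

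Tnc, encoding the injury-induced glycoprotein tenascin C, measured 12.76, 13.44 and 12.41 in OSR, 12.74, 12.47 and 13.06 in OR, 12.4, 12.09 and 12.5 in YSR and 11.95, 12.02 and 12.88 in YR. Both old groups had higher means than both young groups, but single arrays overlapped, and the age difference was 0.51 ± 0.2 (SE, adjusted p = 0.498). Sparc, a collagen-binding protein of bone and wounds, measured 13.76, 13.64 and 13.37 in OSR, 13.6, 13.76 and 14.15 in OR, 14.04, 13.33 and 13.53 in YSR and 13.35, 13.05 and 13.55 in YR. All OR arrays lay above the YR arrays, by 0.52 ± 0.21 on average (SE, adjusted p = 0.535), with OR 1 and YR 3 close together. A second Sparc probe set, nearly as bright (mean 13.17), gave 0.54 ± 0.26 (SE) for OR minus YR, but there the arrays overlapped. On it YSR was the highest group, and YSR minus YR was 0.74 ± 0.26 (SE, adjusted p = 0.991), against 0.322 on the brightest. Eln, the elastin gene, was dim, with means of 6.87, 7.47, 6.95 and 6.53 in OSR, OR, YSR and YR. Thbs2 and the fibrillin gene Fbn1 differed little, by -0.01 and -0.08 for OR minus YR.

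The 4 small leucine-rich proteoglycans split by gene, with medians of 0.11 for OR minus YR and -0.14 for OSR minus YSR. Of them 2 were higher in OR than in YR at an unadjusted p under 0.05 (4.8% of all probe sets). Bgn (biglycan) measured 11.95, 11.8 and 11.31 in OSR, 11.53, 11.91 and 12.13 in OR, 11.34, 11.79 and 11.77 in YSR and 10.97, 11.13 and 11.29 in YR. YR lay below every array of the other 3 groups, though YR 3 came close to OSR 3. OR minus YR was 0.73 ± 0.2 (SE, interval 0.3 to 1.16, unadjusted p = 0.00291, adjusted p = 0.318), and YSR minus YR was 0.5 ± 0.2 (SE, adjusted p = 0.991). Lum (lumican) measured 14.49, 14.04 and 13.65 in OSR, 14.71, 14.45 and 14.55 in OR, 13.84, 13.99 and 14.09 in YSR and 13.95, 13.64 and 14.32 in YR. Again the OR arrays were above all young arrays, and OR minus YR was 0.6 ± 0.21 (SE, adjusted p = 0.464).

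Dcn (decorin), the neighbour of Lum in the genome, leaned the other way. It measured 12.36, 12.78 and 12.35 in OSR, 12.36, 11.92 and 12.87 in OR, 12.61, 12.85 and 13.03 in YSR and 12.78, 12.13 and 13.38 in YR. The groups overlapped, and old minus young was -0.36 ± 0.21 (SE, adjusted p = 0.656), or -0.202 without YR 3. Fmod (fibromodulin) was the least even gene of the set, with means of 7.86 ± 0.67 in OSR, 8.13 ± 0.9 in OR, 9.06 ± 0.85 in YSR and 9.05 ± 1.27 in YR (SD, n = 3 each). Its age difference was -1.06 ± 0.45 (SE, adjusted p = 0.536). Col14a1, Fmod and P4ha1 were the 3 members lower in old rats at an unadjusted p under 0.05, beside the 14 that were higher.

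Endothelial markers, too, were higher in OR than in YR. The endothelial list (7 of 8 measured) summed to a signal of 4948 to 9658 in OSR, 7404 to 13977 in OR, 4728 to 5749 in YSR and 5343 to 6432 in YR. The OR arrays exceeded all young arrays. For OR minus YR 6 of the 7 markers were higher at an unadjusted p under 0.05 (4.8% of all probe sets), among them the receptor gene Tek (1.34 ± 0.36 SE) and Vwf (1.39 ± 0.44), and none was lower. By the median deviation per array, the 4 arrays highest in the basement membrane family were OR 2, OSR 1, OR 1 and OR 3, in that order, and the same 4 arrays in the same order led the endothelial list. The remaining arrays were ordered differently. OSR 2 stood at 0.07 in the family and -0.36 in the list, and YR 2 at -0.43 and -0.02. The part of the endothelial markers in the collagen differences was not tested. No marker of the list was at the floor on any array.

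The other marker lists were counted for OR minus YR at an unadjusted p under 0.05, where 4.8% of all probe sets were higher and 3.54% lower. Smooth muscle and pericyte markers (7 of 7) gave 5 higher and 1 lower, with summed signals of 7405 to 13762 in OSR, 7872 to 11334 in OR, 7917 to 9222 in YSR and 6041 to 14767 in YR. Fibroblast and progenitor markers (10 of 11) gave 4 higher, Thy1 by 1.18 ± 0.35 and Pdgfrb by 0.93 ± 0.29 (SE) among them, while their sums overlapped at 52277 to 63527 in OSR, 59572 to 64574 in OR, 53216 to 65818 in YSR and 55102 to 61554 in YR. Adipocyte markers (6 of 6) gave 3 higher, with a median of 1.72. Their sums were 13861 to 20600 in OSR, 19196 to 24435 in OR, 15908 to 28903 in YSR and 19052 to 22771 in YR. Monocyte and macrophage markers (8 of 8) gave 4 lower, with sums of 61165 to 81595 in OSR, 57457 to 83875 in OR, 69944 to 89806 in YSR and 73894 to 89566 in YR. Skeletal muscle was the least even list, at 11223 to 110662 in OSR, 16957 to 71461 in OR, 32169 to 65344 in YSR and 46100 to 75294 in YR. For OR minus YR 7 of its 8 measured markers were negative, with a median of -2.24, and none of these met an unadjusted p under 0.05, which the remaining marker, Myh1, met at 0.73. For OR minus YR neutrophil markers (5 of 8) gave 3 higher, osteoclast markers (3 of 6) 2 higher and cartilage markers 1 lower, while markers of osteoblasts (6 of 8), red cells (5 of 7) and platelets (5 of 6) gave none. The part of these lists in the matrix differences was not tested.

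**Figure D4:**
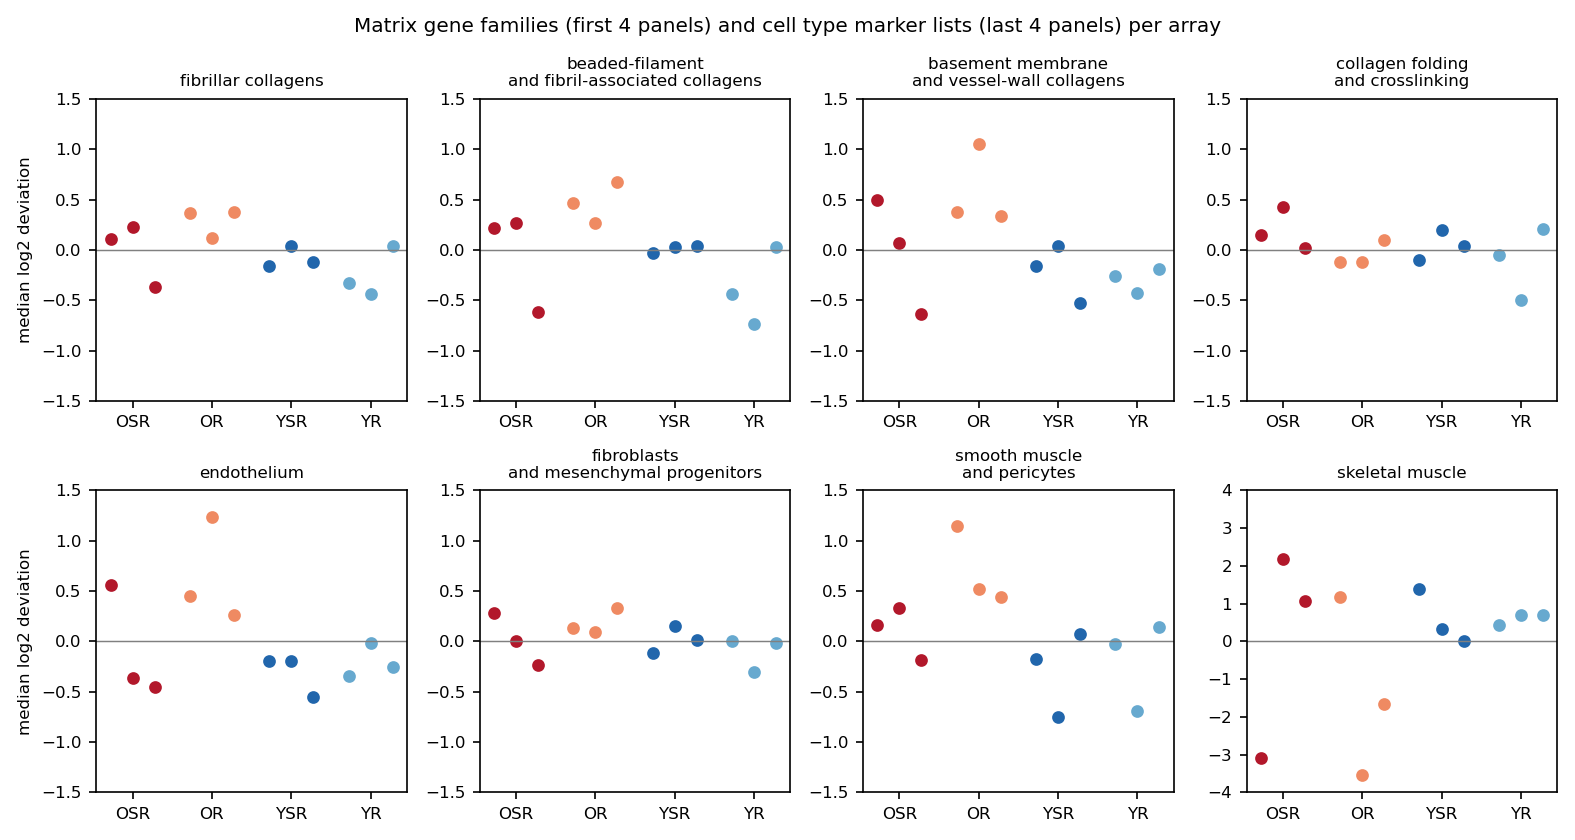
Each point is an array and gives the median, over the genes of a list, of the log2 signal minus the mean of the gene over the 12 arrays, for 4 matrix families (upper row) and 4 marker lists (lower row, the skeletal muscle panel on a wider scale). The OR arrays reach 0.34 to 1.05 in the basement membrane family and 0.26 to 1.24 in the endothelial list, above all young arrays in both, while the folding and crosslinking family shows no such separation.

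Genes that act around collagen were counted in 3 further lists, none of whose members passed the threshold. Other collagen maturation genes (13 of 20 measured) gave 1 higher and none lower at an unadjusted p under 0.05 for OR minus YR (4.8% and 3.54% of all probe sets), with a median of -0.06, unlike the collagens themselves. The gene was P4ha3, a prolyl hydroxylase subunit (0.56 ± 0.24 SE, adjusted p = 0.567). Plod3, a further lysyl hydroxylase, was higher under semi-rigid fixation by 0.26 ± 0.1 (SE, adjusted p = 0.845), the same sign as Plod1, and P3h3, a prolyl 3-hydroxylase, was higher in YSR than in YR by 0.41 ± 0.19 (SE, adjusted p = 0.991).

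Among other matrix genes (27 of 27 measured) 5 were higher and none was lower for OR minus YR at an unadjusted p under 0.05 (4.8% and 3.54% of all probe sets), with a median of 0.16. Nid1, encoding the basement membrane linker nidogen, measured 11.96, 11.48 and 10.87 in OSR, 11.98, 12.23 and 11.94 in OR, 11.48, 11.25 and 11.35 in YSR and 11.12, 10.83 and 11.4 in YR, the pattern of Col4a1. OR minus YR was 0.93 ± 0.23 (SE, adjusted p = 0.269). Ccn2, the connective tissue growth factor gene, measured 11.98, 12.78 and 11.28 in OSR, 12.92, 12.55 and 12.77 in OR, 11.6, 11.17 and 10.82 in YSR and 11.33, 11.28 and 11.7 in YR. Of the 6 old arrays 5 exceeded all young arrays, the exception being OSR 3. Its age difference was 1.06 ± 0.22 (SE, unadjusted p = 0.000317, adjusted p = 0.164). Efemp2 (fibulin 4), which is needed for elastic fibre assembly, had an OSR minus YSR difference of -0.6 ± 0.18 and an OR minus YR difference of 0.4 ± 0.18, and its interaction was -1.0 ± 0.25 (SE, unadjusted p = 0.00167, adjusted p = 0.99).

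TGF-beta is a main inducer of collagen genes, and 9 of 11 genes of its signalling list were measured. For OR minus YR none met an unadjusted p under 0.05 (8.34% of all probe sets did) and the median was 0.09. For age, averaged over fixation, 4 of the 9 met it (8.59% of all probe sets). Of these 3 were higher and 1 was lower in old rats (4.7% and 3.89% of all probe sets), and the median over the list was 0.1. Tgfb1 measured 10.28, 10.41 and 10.59 in OSR, 6.97, 9.18 and 9.74 in OR, 8.5, 10.67 and 10.49 in YSR and 8.57, 8.06 and 7.05 in YR. It was higher under semi-rigid fixation by 1.9 ± 0.48 (SE, unadjusted p = 0.00182, adjusted p = 0.818), with 5 of the 6 semi-rigid arrays above all rigid arrays and YSR 1 among the rigid arrays. The arrays with the highest Gapdh ratios, OR 1 and YSR 1, held the lowest Tgfb1 value of their groups, and the part of RNA quality in the difference was not tested. Tgfb2 was higher in OSR than in YSR by 0.67 ± 0.22 (SE, adjusted p = 0.959). Smad7, an inhibitor of the pathway, was higher in old rats by 0.64 ± 0.24 (SE, adjusted p = 0.46).

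The precision of 3 arrays a group limits these comparisons. The 95% interval of a member typically reached 0.54 to either side for OR minus YR and 0.77 for the interaction, while the median OR minus YR difference of the fibrillar collagens was 0.46. A further 21 probe sets named the same genes, and signs were compared for the 17 of them at or above the median signal. Of these 17, 15 had the sign of the brightest probe set for OR minus YR and 14 for OSR minus YSR and for age.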

How the data were processed

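Fracture hematoma RNA of 12 pools (4 groups of 3 arrays, 3 animals per pool, day 3) was hybridised to Affymetrix rat chips, which carry a single dye. Linear signal intensity for 31099 probe sets was deposited by the authors, with an equal trimmed mean on all chips, and the submitters' processing notes name GCOS 1.2. The PLIER summaries of the study's methods were not used here. Since 57 control probe sets were left out, 31042 were tested. For this work a floor of 1 was set before the log2 was taken. The deposited intensity values carry no count, so that only the number of arrays sets the precision.

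Gene names were taken from GEO's platform table, where 20832 probe sets carried 1 symbol, 436 several and 9831 none, and gene identifiers tied 20764 to current rat genes. Promoter sequences are those of RefSeq (GRCr8). Group means were fitted over all 12 arrays with limma 3.58.1 (lmFit, then eBayes with trend) under R 4.3.3, and 7 contrasts were taken: 4 pairs of groups differing in 1 factor, age (old minus young), fixation (semi-rigid minus rigid) and the interaction. A probe set counted as called where its Benjamini-Hochberg value over the whole table was under 0.05. The steps were tested on simulated data. Python 3.11.15, pandas 2.3.3, numpy 2.4.6 and matplotlib 3.10.9 were used for tables and plots.

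The members, the lists and the rule for naming genes were chosen with earlier results of these data known. The rule gave values on every array for Col1a1, Col1a2, Col3a1, Col4a1, Lox, Fn1, Postn and Dcn, and for the member of each family with the smallest unadjusted p for age, fixation and the interaction, 21 in all, and named up to 3 genes of each pathway list. Col14a1 was given in full as an exception chosen after its values were seen. Alternatives were quantile normalization, a pseudocount of 16, brighter probe sets only, eBayes with no trend, fits on the pair compared, an unmoderated test on the same values (the study's methods name an analysis of variance for each pair of groups and a 2-way one for the interaction), the replicate number as a block, averaging the probe sets of each gene, dropping OR 1 and YSR 1 (the 2 arrays of highest Gapdh ratio), and leaving out each of the 12 arrays in turn.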

Additional observations from a re-analysis of the deposited data

How the results depend on the processing

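No matrix gene passed the threshold under any alternative, except Col4a1 for age without OSR 3 (0.91, adjusted p 0.0432), and no named difference with an unadjusted p under 0.05 changed sign. Of 2877 differences of the 21 named genes under the alternatives, 133 had another sign than the reported value, all where that value did not meet an unadjusted p under 0.05. The median difference of the members ranged, as each array was left out, from -0.042 to 0.29 for OSR minus YSR, -0.356 to 0.018 for OSR minus OR, -0.003 to 0.32 for YSR minus YR, -0.08 to 0.096 for fixation and -0.542 to -0.054 for the interaction. It kept its sign for OR minus YR (0.334 to 0.602) and age (0.191 to 0.386).

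The number of all probe sets called for OSR minus YSR was 0 in place of 1 after quantile normalization, without an intensity trend, with only the arrays of the pair, by the unmoderated test, with the replicate block and without OR 1 and YSR 1. For OR minus YR it was 0 in place of 1 without a trend, by the unmoderated test and without OR 1 and YSR 1, and 14 with only the arrays of the pair. For age it was 4 without a trend, 0 by the unmoderated test, and 1 with the replicate block and without OR 1 and YSR 1, in place of 2. Without OR 1 and YSR 1 it was 27 for YSR minus YR and 3 for fixation, in place of 0. As each array was left out the number ran from 0 to 1 (OSR minus YSR), 0 to 4 (OR minus YR), 0 to 1 (OSR minus OR), 1 to 80 (age) and 0 to 1 (fixation), and the number of members called for age from 0 to 1.

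The number of members at an unadjusted p under 0.05 changed as follows. Without an intensity trend it was 1 for OSR minus YSR, 3 for OSR minus OR, 0 for YSR minus YR, 9 for age, 2 for fixation and 1 for the interaction. By the unmoderated test it was 1 for OSR minus OR, 7 for age, 2 for fixation and 1 for the interaction. Without OR 1 and YSR 1 it was 4 for OSR minus OR, and with the mean of all probe sets of a gene it was 2 for fixation. As each array was left out it ran from 1 to 8 (OSR minus YSR), 10 to 23 (OR minus YR), 3 to 12 (OSR minus OR), 0 to 4 (YSR minus YR), 8 to 22 (age), 3 to 7 (fixation) and 1 to 11 (interaction). Why the counts moved was not tested.

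Replicate numbers carried no pairing. Deviations of same-numbered arrays correlated at a median of 0.019 over 18 pairs (from -0.412 to 0.405), against 0.02 over 36 other pairs, and in 0 pairs of groups were all correlations above 0.1. With the replicate block the members at an unadjusted p under 0.05 numbered 1 for YSR minus YR and 3 for fixation, and the block called 0 members in any comparison. Signal over background was not measured here, and 36 of 37 members had a mean signal at or above the median of the array.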
